A study of Mus musculus with 70 samples.

Results

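Microglia are the resident macrophages of the brain, and in the mouse they pass from a dividing, phagocytic state in the first postnatal week to a ramified, surveying state in the adult. The comparison described here asked which microRNAs (miRNAs) differed between the 2 ends of that period, postnatal day 6 (P6) and 8 weeks. It used 22 of the 70 small RNA libraries of the study, which were all CD45+ libraries of 8 weeks (12) and P6 (10) except that of P6 female 6. Both libraries of that mouse were set aside because the study's methods name 1 outlier mouse, and its identity was inferred and remains uncertain. All mice were wild-type C57BL/6 without treatment, with 6 females and 6 males at 8 weeks and 4 females and 6 males at P6. Whole brains were dissociated and CD45+ cells were captured on antibody-coated dishes (immunopanning), 1 mouse per library. The CD45- cells that did not bind, called bulk cells here, were sequenced from the same brains. CD45 is carried by all white blood cells, so the capture does not separate microglia from other macrophages, monocytes or lymphocytes.

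A miRNA is a short RNA that is cut from a hairpin precursor, whose 5′ and 3′ arms can each give a mature miRNA. It guides the silencing complex to messenger RNAs, mostly through its seed, bases 2 to 8 counted from the 5′ end. miRNAs with the same seed are grouped into families with overlapping targets, and precursors that lie close together are often transcribed as 1 unit. In microglia, miR-142 and miR-223 mark the blood lineage, miR-146a and miR-155 are known for damping and promoting inflammatory signalling, and miR-124 is best known as a neuronal miRNA.

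The labelled cell type was checked against marker miRNAs. Myeloid markers took 1.91% to 4.53% of the counts of P6 microglia and 3.23% to 5.75% at 8 weeks, against at most 0.0877% in any bulk library of either age, and none of the 13 was at 0. Markers of other cells were present too. The neuronal list, mostly miR-9-5p, took 10.9% to 25.3% at P6 and 5.19% to 12.7% at 8 weeks, and the red blood cell list 0.812% to 4.45% and 1.26% to 4%. The microglial totals ranged from 1678034 to 4066435 counts at P6 and from 4244639 to 5982922 at 8 weeks, so every adult library was deeper than every P6 library. Levels below are normalised CPM, that is counts scaled to a common library total after correction by TMM, a factor that allows for differences in composition. In bulk samples of this kind, fewer cells of a type and less RNA per cell cannot be told apart.

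The mature sequences of the families that the results turn on are given first, from RefSeq on GRCm38.p6, with the seed in capitals. The first 3 rose together and share all 7 seed bases, and the next 3 fell together and share another seed.
miR-29a-3p: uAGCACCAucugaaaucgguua
miR-29b-3p: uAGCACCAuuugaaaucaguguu
miR-29c-3p: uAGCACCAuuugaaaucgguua
miR-130a-3p: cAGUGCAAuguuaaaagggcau
miR-130b-3p: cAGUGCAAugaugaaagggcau
miR-301a-3p: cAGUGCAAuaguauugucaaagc
miR-23a, miR-27a and miR-24-2 are cut from 1 cluster, and their 3′ arms rose together although the seeds differ.
miR-23a-3p: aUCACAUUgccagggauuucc
miR-27a-3p: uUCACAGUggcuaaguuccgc
miR-24-3p: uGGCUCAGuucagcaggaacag
The rises that were larger in microglia than in bulk cells include the following.
miR-455-3p: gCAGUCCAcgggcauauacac
miR-146a-5p: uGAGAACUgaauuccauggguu
miR-10a-5p: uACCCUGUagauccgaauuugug
Among the largest falls without overlap between the ages were those of a pair that is nearly identical in sequence, and of miR-449a.
miR-3473b: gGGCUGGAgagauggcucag
miR-3473e: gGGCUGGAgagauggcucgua
miR-449a-5p: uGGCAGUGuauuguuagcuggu
The last pair shares its seed and moved in opposite directions.
miR-148a-3p: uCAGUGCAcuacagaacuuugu
miR-152-3p: uCAGUGCAugacagaacuugg

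Of 1072 features tested, 178 (16.6%) changed between P6 and 8 weeks, 77 of them (7.18%) to a higher and 101 (9.42%) to a lower level at 8 weeks. In bulk cells of the same brains 275 (25.7%) changed. A change was called when the fold change exceeded 2 by limma's TREAT test at a false discovery rate of 0.05. Adjusted p-values below are from that test unless another is named. Values after ± are standard errors (SE). The median log2 fold change (8 weeks minus P6) was 2.02 among the rises, -2.61 among the falls and -0.17 over all features. For 127 of the 178, every 8-week library lay outside the range of the P6 libraries, with 64 rises and 63 falls. Over all 1072 features the ages did not overlap for 180 (16.8%), 101 (9.42%) of them higher and 79 (7.37%) lower at 8 weeks. Scaling moved the balance. With library size alone the median of all features was -0.64, and 39 rose while 175 fell. Among the rises named below, those of miR-26a-5p, miR-26b-5p, miR-191-5p, let-7g-5p, miR-27b-3p, miR-24-2-5p, miR-132-3p, miR-152-3p, miR-342-3p, miR-425-3p, miR-146a-3p, miR-181a-2-3p and miR-181b-2-3p did not pass under that scaling, although none changed sign.

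**Figure D1:**
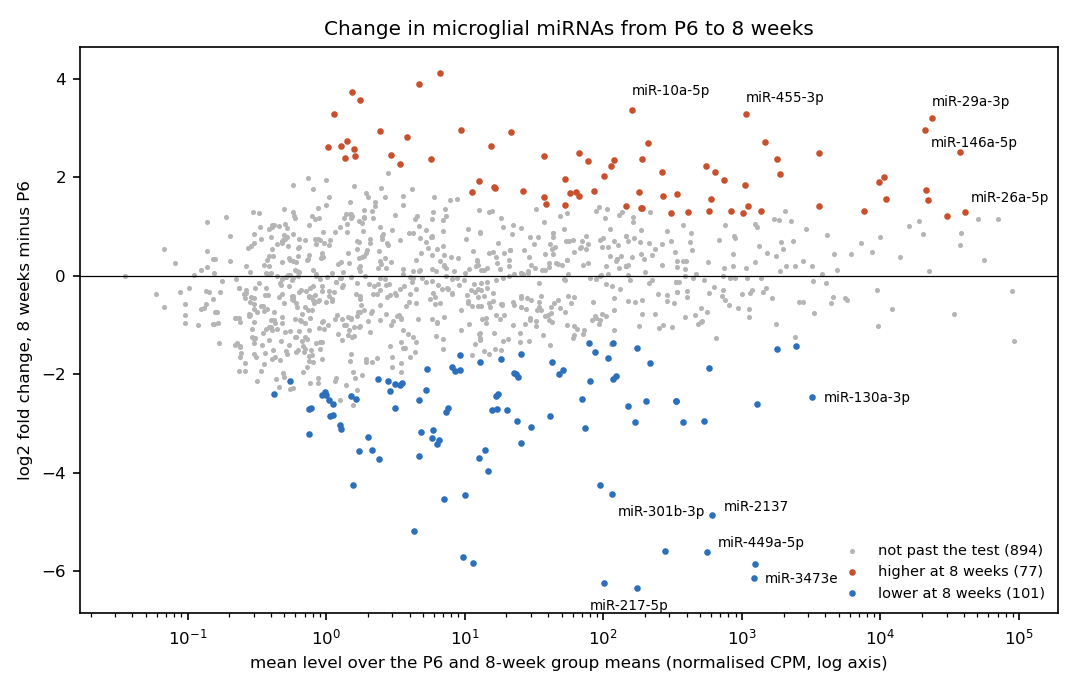
Each point is 1 of 1072 features, with the mean of its P6 and 8-week levels in normalised CPM on a log axis and its log2 fold change on the vertical axis. The 77 rises are orange and the 101 falls blue and features that did not pass are grey. miR-29a-3p and miR-146a-5p lie at the upper right, and miR-3473e and miR-217-5p at the bottom.

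The miR-29 family, known for repressing collagens and DNA methyltransferases, rose in adult microglia. Of its 7 tested arms 6 rose and none fell, beside 7.18% of all features that rose, and 5 rose with library size alone. The family held 1.39% to 3.46% of the counts at P6 and 6.23% to 10.3% at 8 weeks. miR-29a-3p stood at 3599 to 6506 at P6 (median 4545) and 34565 to 48939 at 8 weeks (median 42986), in normalised CPM. The groups did not overlap, and the log2 fold change was 3.20 ± 0.10 (adjusted p = 2.15e-29). miR-29b-3p was the most abundant member, at 8354 to 19322 at P6 (median 10883) and 42017 to 81684 at 8 weeks (median 65894). It rose by 2.52 ± 0.12 (adjusted p = 2.35e-17) on the log2 scale. miR-29c-3p, the least abundant of the 3′ arms, ranged from 309.7 to 450.2 normalised CPM at P6 (median 393) and from 1907 to 3031 at 8 weeks (median 2590.4), a log2 fold change of 2.72 ± 0.09 (adjusted p = 1.69e-26). The precursors lie in 2 clusters, miR-29b-2 and miR-29c at chr1:195037040-195037634, where 4 of 4 tested arms rose, and miR-29a and miR-29b-1 at chr6:31062660-31063093, where 3 of 4 did. The reads of miR-29b-3p cannot be divided between its 2 precursors. The exception was miR-29b-1-5p, at -0.53 ± 0.15 (adjusted p = 1).

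The cluster of miR-23a, miR-27a and miR-24-2 (chr8:84208518-84208921, in no other gene), known from blood cell differentiation, rose in 4 of its 6 tested arms. miR-23a-3p ranged from 3262 to 5625 normalised CPM at P6 (median 4299) and from 13281 to 21063 at 8 weeks (median 16830.3), a log2 fold change of 2.01 ± 0.11 (adjusted p = 1.04e-12). miR-27a-3p rose by 1.92 ± 0.12 (adjusted p = 4.34e-09), with a lowest 8-week library of 10866 against a highest P6 library of 6069.8 normalised CPM. miR-24-3p, which also has a precursor on chromosome 13 beside miR-23b and miR-27b, rose by 1.74 ± 0.09 (adjusted p = 5.97e-10). In these 3 arms every 8-week library was above every P6 library. miR-24-2-5p rose by 1.37 ± 0.15 (adjusted p = 0.0438). This call was lost in 6 of the 22 repeats of the fit that left out 1 mouse, each an adult, and with DESeq2 (adjusted p = 0.201), DESeq2 size factors (0.0569), entries of one name summed (0.128), thinning to equal depth (0.0721) and library size alone. Over all alternatives, which include a test without a fold change threshold, its adjusted p ran from 1.41e-12 to 1. The minor arms of the other precursors did not pass, at 0.14 for miR-23a-5p and -0.45 for miR-27a-5p. From the chromosome 13 copy miR-27b-3p rose by 1.43 ± 0.09 (adjusted p = 0.00015), while miR-23b-3p, at 1.12 ± 0.09 (adjusted p = 0.349), did not pass. Of 11 tested arms of these miRNAs 5 rose and none fell, beside 7.18% of all features that rose. The count ran from 4 to 6 with 1 mouse left out at a time and was 3 with library size alone. Their share of the counts was 2% to 3.63% at P6 and 5.04% to 6.76% at 8 weeks.

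Further abundant miRNAs rose by smaller factors. miR-26a-5p, whose precursors lie in genes of the Ctdsp phosphatases, ranged from 20470.0 to 26072 normalised CPM at P6 (median 24399.7) and from 49242 to 72147 at 8 weeks (median 58047). Its log2 fold change was 1.29 ± 0.08 (adjusted p = 0.00174), and the groups did not overlap. miR-26b-5p, with the same seed, rose by 1.57 ± 0.10 (adjusted p = 3.92e-06). miR-191-5p rose by 1.54 ± 0.08 (adjusted p = 1.3e-07) and its cluster neighbour miR-425-3p by 1.39 ± 0.15 (adjusted p = 0.0358), a call lost in 3 of the 22 repeats, with DESeq2 (adjusted p = 0.101), with entries of one name summed (adjusted p = 0.098) and with the replicate block (adjusted p = 0.0543). Among 21 tested arms of the let-7 family, which holds back proliferation genes, 3 (14.3%) rose and none fell, beside 7.18% of all features that rose. The largest of these by level was let-7g-5p (intron of Wdr82), at 16030.2 to 21674 at P6 (median 17475) and 31167 to 68116 at 8 weeks (median 42968), and it rose by 1.22 ± 0.09 (adjusted p = 0.0454). Its call is close to the threshold and was lost in 7 of the 22 repeats that left out 1 mouse, with DESeq2 (adjusted p = 0.0557) and with entries of one name summed (adjusted p = 0.219). let-7f-5p, at 1.15 ± 0.08 (adjusted p = 0.169), and let-7c-5p, at -0.31 ± 0.12 (adjusted p = 1), did not pass. The let-7 members differ by few bases and may share reads.

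Among miRNAs of blood and immune cells the ages differed for some members and not for others. miR-146a-5p, a brake on signalling through the Toll-like receptor adaptors (chr11:43374397-43374461), ranged from 3895 to 7707 normalised CPM at P6 (median 4345) and from 25393 to 47503 at 8 weeks (median 38653). The groups did not overlap, and the log2 fold change was 2.97 ± 0.14 (adjusted p = 2.1e-19). The other arm, miR-146a-3p, also rose, by 1.73 ± 0.24 (adjusted p = 0.0129), a call lost with DESeq2 (adjusted p = 0.0637). These were the 2 rises (15.4%) among 13 myeloid markers, beside 7.18% of all features that rose, and none of the 13 fell past the test. With library size alone 1 of the 13 rose and 2 fell. The lineage markers miR-223-3p, at 0.20 ± 0.11 (adjusted p = 1), and miR-142a-3p, at 0.38 ± 0.13 (adjusted p = 1), did not pass. Nor did the proinflammatory miR-155-5p, at 0.59 ± 0.14 (adjusted p = 1). miR-511-3p, which lies in the macrophage mannose receptor gene Mrc1, stood at 119 to 242 at P6 (median 153) and 40.9 to 82.2 at 8 weeks (median 61.1) without overlap, but its log2 fold change of -1.39 ± 0.18 (adjusted p = 0.0921) did not pass TREAT. Of 5 lymphoid and monocyte markers 3 rose, beside 7.18% of all features. miR-150-5p, abundant in mature lymphocytes, ranged from 353 to 756 normalised CPM at P6 (median 580.5) and from 1756 to 5913 at 8 weeks (median 2556) and rose by 2.38 ± 0.21 (adjusted p = 1.07e-07). miR-342-3p, which lies in Evl, rose by 1.33 ± 0.13 (adjusted p = 0.0355), a call lost in 4 of the 22 repeats that left out 1 mouse, with DESeq2 (adjusted p = 0.155) and with entries of one name summed (adjusted p = 0.113).

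Both arms of miR-455, which lies in an intron of the collagen gene Col27a1 (chr4:63256851-63256932), rose. miR-455-3p ranged from 166 to 259.7 normalised CPM at P6 (median 192) and from 1600.5 to 2220.3 at 8 weeks (median 1931), a log2 fold change of 3.28 ± 0.10 (adjusted p = 3.71e-30). miR-455-5p rose by 2.70 ± 0.13 (adjusted p = 6.04e-19). Every adult library of both arms was above every P6 library. miR-140, known like miR-455 from cartilage, did not pass in either arm, at 1.03 for miR-140-3p and 0.56 for miR-140-5p. miR-10a-5p, from the HoxB cluster (chr11:96317165-96317274), ranged from 17.9 to 45.5 normalised CPM at P6 (median 27.3) and from 222 to 398 at 8 weeks (median 269) and rose by 3.38 ± 0.32 (adjusted p = 4.05e-09). Its paralog miR-10b-5p, which has the same seed, was near the floor and differed by 0.56 ± 0.65 (adjusted p = 1). miR-203-3p, best known from skin and chosen after its values were seen, rose by 2.10 ± 0.10 (adjusted p = 2.84e-14).

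Several rises were those of miRNAs known from neurons, oligodendrocytes and epithelia. Of 4 oligodendrocyte markers 3 rose, beside 7.18% of all features, the largest by level being miR-338-3p, at 295 to 635 at P6 (median 421) and 1347 to 2148 at 8 weeks (median 1542). It rose by 1.85 ± 0.13 (adjusted p = 9.56e-08). The number of oligodendrocyte markers that rose was 2 without 8-week female 1 or male 3. The summed oligodendrocyte list took 0.0593% to 0.114% of P6 and 0.14% to 0.326% of 8-week microglial counts. In bulk cells it took 0.12% to 0.308% at P6 and 1.75% to 3.62% at 8 weeks, and its part in the microglial rise was not tested. All 3 tested arms of miR-132 and miR-212, a cluster induced by neuronal activity (chromosome 11), rose, beside 7.18% of all features, and 2 of the 3 rose with library size alone. miR-132-3p ranged from 152 to 502 normalised CPM at P6 (median 325) and from 671 to 2027 at 8 weeks (median 1084), a log2 fold change of 1.95 ± 0.23 (adjusted p = 0.000394), and in bulk cells the log2 fold change was 4.14. miR-212-3p rose by 2.36 ± 0.17 (adjusted p = 5.97e-10). Among 15 tested neuronal markers 4 (26.7%) rose and 1 (6.67%) fell, beside 7.18% and 9.42% of all features. With 1 mouse left out at a time the number of rises ran from 3 to 5. The fall was that of miR-124-5p, at -2.94 ± 0.30 (adjusted p = 1.13e-07). Its abundant partner arm miR-124-3p did not pass, at 0.09 ± 0.18 (adjusted p = 1). miR-9-5p, the neural progenitor miRNA that dominates this list, stood at 57642 to 180211 at P6 (median 130168) and 33412 to 108475 at 8 weeks (median 49823) with overlap and did not pass, at -1.31 ± 0.18 (adjusted p = 0.202). miR-204-5p, an epithelial miRNA abundant in the choroid plexus (intron of Trpm3), ranged from 425 to 3184 normalised CPM at P6 (median 879.8) and from 3284 to 12667 at 8 weeks (median 5803) and rose by 2.50 ± 0.25 (adjusted p = 9.76e-07).

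The miR-130 and miR-301 family, known for promoting proliferation, fell in 6 of its 7 tested arms and rose in none, beside 9.42% of all features that fell. It held 0.807% to 1.17% of the counts at P6 and 0.0869% to 0.17% at 8 weeks. miR-130a-3p, the most abundant at P6, ranged from 2179.5 to 7051 normalised CPM at P6 (median 6556) and from 758 to 1688 at 8 weeks (median 894), a log2 fold change of -2.46 ± 0.17 (adjusted p = 2.97e-11). miR-301a-3p (intron of Ska2) changed by -2.60 ± 0.09 (adjusted p = 2.86e-24). miR-130b-3p ranged from 687 to 1297 normalised CPM at P6 (median 906) and from 99.6 to 146 at 8 weeks (median 115), a change of -2.96 ± 0.12 (adjusted p = 9e-24). Its neighbour miR-301b-3p on chromosome 16 changed by -4.42 ± 0.16 (adjusted p = 6.15e-29). For these 4 miRNAs every P6 library was above every 8-week library, and the 3 with a RefSeq sequence share the seed shown above.

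**Figure D2:**
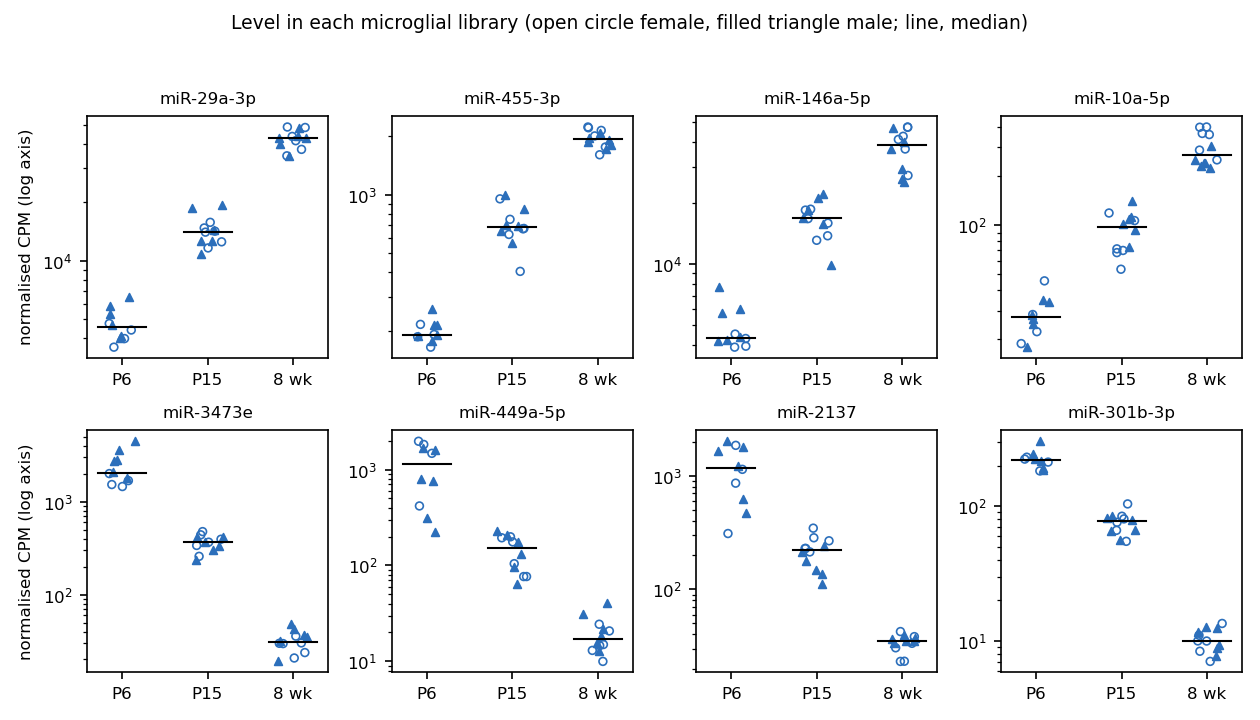
Each panel shows 1 miRNA in the 34 microglial libraries used, without P6 female 6, with age on the horizontal axis and normalised CPM on a log axis. Circles are females, triangles males and bars medians, and for each of the 8 miRNAs the P15 median lies between those of P6 and 8 weeks.

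Among 7 tested members of the miR-3473 family, whose sequences resemble a mouse repeat, 3 (42.9%) fell and none rose, beside 9.42% of all features that fell. miR-3473e (intron of Rbks) ranged from 1454 to 4465 normalised CPM at P6 (median 2040.2) and from 19.1 to 48.8 at 8 weeks (median 31.1). It changed by -6.13 ± 0.15 (adjusted p = 9.24e-40) on the log2 scale, the largest fall without overlap between the ages. miR-3473b (intron of Ccdc162, opposite strand) ranged from 1476 to 4492 normalised CPM at P6 (median 2062) and from 25.9 to 53.3 at 8 weeks (median 37.6), with a change of -5.86 ± 0.15 (adjusted p = 9.24e-40). The pair differs at its 3′ end only, and their near-equal P6 levels may be the same reads counted under both names. miR-2137 (intron of Zfp185, chrX:72992079-72992144) was less even among the P6 mice, at 310.1 to 2015 at P6 (median 1175) and 23.2 to 42.5 at 8 weeks (median 35.1). Every P6 library was nevertheless above every 8-week library, with a log2 fold change of -4.87 ± 0.25 (adjusted p = 6.11e-22).

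miR-449, which lies in introns of Cdc20b and promotes the formation of multiciliated cells such as those of the ependyma, fell in 3 of its arms among the 8 tested on the multiciliated list, beside 9.42% of all features that fell. miR-449a-5p ranged from 223 to 1970.3 normalised CPM at P6 (median 1139) and from 9.98 to 40.9 at 8 weeks (median 16.9), a log2 fold change of -5.61 ± 0.33 (adjusted p = 1.74e-19). miR-449c-5p changed by -5.83 ± 0.54 (adjusted p = 1.07e-11), from a P6 median of 17 to levels near the floor. The call of the third arm, miR-449b, was lost in 6 of the 22 repeats that left out 1 mouse, which leaves 2 of the 8. With all libraries thinned to equal depth the change of miR-449b was -0.81 (adjusted p = 1, the highest over its alternatives). The lowest adjusted p was 8.56e-05, and the alternatives include a test without a fold change threshold. Other members of the seed family did not pass, at -0.52 for miR-34a-5p and -0.89 for miR-34b-5p. The multiciliated list took 0.0457% to 0.264% of P6 and 0.00881% to 0.0293% of 8-week microglial counts, against 0.244% to 0.639% and 0.0797% to 0.164% in bulk cells. In bulk cells miR-449a-5p changed by -6.20, and the part of such cells in the microglial fall was not tested.

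A further cluster, singled out after its values were seen, was that of miR-216a and miR-217 (chr11:28757012-28763835), best known from the pancreas. All 4 tested arms fell, beside 9.42% of all features that fell, and so did miR-216b-5p. miR-217-5p ranged from 7.3 to 750.1 normalised CPM at P6 (median 331) and from 0.256 to 21 at 8 weeks (median 2.16), a log2 fold change of -6.33 ± 0.92 (adjusted p = 1.4e-06). The ages overlapped for this miRNA, and the P6 mice differed from each other by a wide margin. miR-216a-5p was as uneven, at 23.4 to 1214 at P6 (median 464) and 2.94 to 24.8 at 8 weeks (median 4.82), and changed by -5.59 ± 0.70 (adjusted p = 1.12e-07).

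miR-199a and miR-214, which are transcribed together from Dnm3os and known from mesenchymal cells, fell in 3 of 4 tested arms of their chromosome 1 cluster, beside 9.42% of all features that fell. miR-199a-3p ranged from 336 to 766 normalised CPM at P6 (median 567) and from 71.8 to 132 at 8 weeks (median 93.6), a log2 fold change of -2.55 ± 0.12 (adjusted p = 2.28e-17). The entry of miR-199b-3p has the same mature sequence and nearly the same values, so it adds no evidence. miR-214-3p changed by -4.45 ± 0.43 (adjusted p = 3.88e-10) and miR-199a-5p by -3.40 ± 0.24 (adjusted p = 2.24e-13). The smooth muscle miRNAs on the same marker list did not pass, at 0.48 for miR-143-3p and 0.99 for miR-145a-5p. In bulk cells the change of miR-199a-3p was -2.93.

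Some of the falls were those of miRNAs in imprinted genes, which are expressed from 1 parental copy. No list covered imprinted miRNAs as a whole, and those named here, apart from miR-296 and the Dlk1-Dio3 list, were chosen after their values were seen. At the Gnas locus (chr2:174267047-174267585) 4 of 4 tested arms of miR-296 and miR-298 fell. miR-296-3p ranged from 116 to 268 normalised CPM at P6 (median 168) and from 5.95 to 13.5 at 8 weeks (median 9.01), a change of -4.25 ± 0.19 (adjusted p = 1.01e-23), and miR-298-5p changed by -2.97 ± 0.12 (adjusted p = 1.01e-23). miR-335-5p, in an intron of Mest, changed by -2.64 ± 0.19 (adjusted p = 4.09e-11), and both tested arms of miR-483, in Igf2, fell. In the Dlk1-Dio3 domain on chromosome 12, 8 of 61 tested arms on the list (13.1%) fell and none rose, beside 9.42% of all features that fell. With 1 mouse left out at a time the count ran from 5 (8.2%, without P6 male 2) to 9. The median log2 fold change of the 61 was -0.84, against -0.17 over all features. The list took 0.807% to 1.54% of P6 and 0.4% to 1.1% of 8-week microglial counts, against 2.45% to 5.21% and 3.19% to 5.11% in bulk cells. The share of the neuronal list in microglia moved with it, as given above, and the part of neuronal RNA in the fall was not tested. The precursors of the domain, listed or not, lie in 3 runs with 11 of 72, 2 of 23 and 1 of 5 tested arms lower and 0 higher. miR-134-5p, known from dendrites, is not on the list. It ranged from 87.5 to 173 normalised CPM at P6 (median 126) and from 20.0 to 41.4 at 8 weeks (median 28.9), a change of -2.13 ± 0.15 (adjusted p = 6.49e-09).

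The miR-17 to 92 cluster and its paralogs, which are driven by Myc in dividing cells, had 4 falls (16%) and no rise among 25 tested arms, beside 9.42% of all features that fell. With 1 mouse left out at a time the count ran from 2 (8%, without P6 female 2) to 5, and the call of miR-18a-3p was lost in 17 of the 22 repeats. miR-18a-5p ranged from 2049 to 3044 normalised CPM at P6 (median 2703) and from 738 to 1167 at 8 weeks (median 956), a log2 fold change of -1.48 ± 0.11 (adjusted p = 0.00039). Its abundant cluster partners did not pass, at -0.55 for miR-17-5p, -0.45 for miR-20a-5p and -0.49 for miR-92a-3p. With library size alone 10 arms of the list fell.

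**Figure D3:**
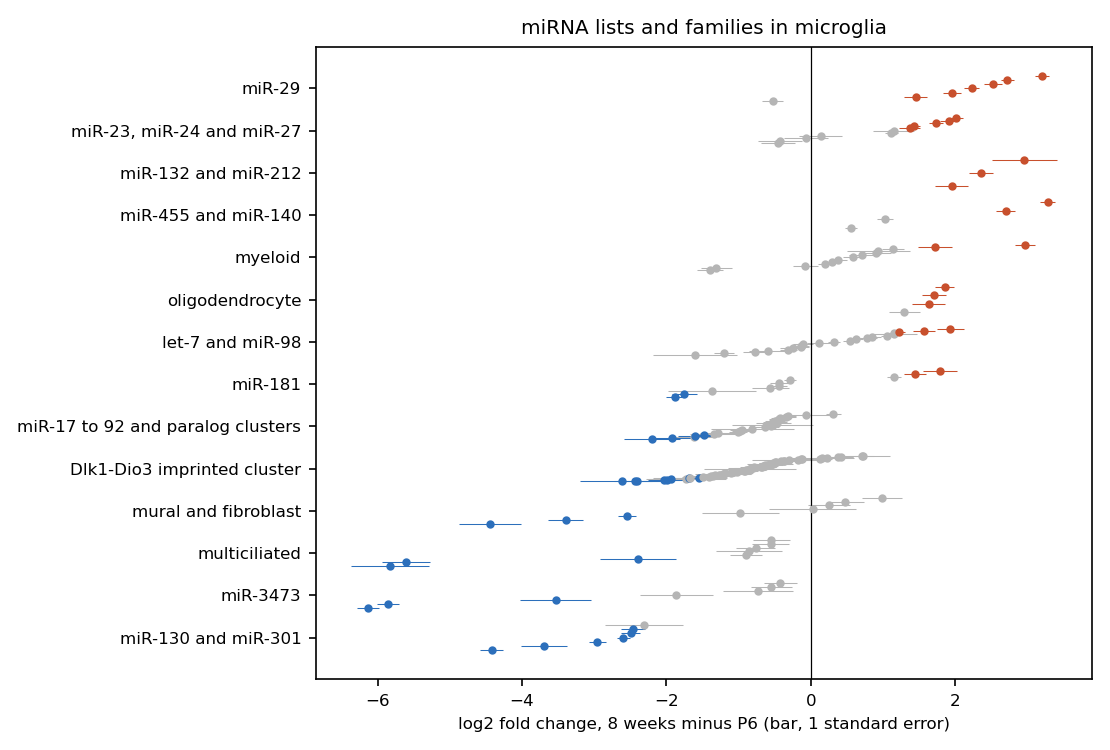
Rows are 14 of the lists, and each point is 1 tested arm with its log2 fold change (8 weeks minus P6) and a bar of 1 standard error. Orange points rose, blue points fell and grey points did not pass, and the miR-29 and miR-130 lists lie almost wholly on opposite sides of 0.

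The other miRNAs among the 10 largest rises and falls without overlap, and with at least 10 counts in every library of the higher age, had low levels, in normalised CPM. Among the rises, miR-145b, which had at most 3 counts in any P6 library, reached 2.08 to 18.9 at 8 weeks. miR-3086-5p stood at up to 1.19 at P6 and from 2.7 to 17.2 at 8 weeks. The sizes of such rises are imprecise. miR-204-3p, the minor arm of miR-204, rose by 2.93 ± 0.34 (adjusted p = 3.03e-06), miR-132-5p by 2.96 ± 0.45 (adjusted p = 0.000252) and miR-7213-5p by 2.83 ± 0.39 (adjusted p = 9.67e-05). Among the falls, miR-7b-3p changed by -3.96 ± 0.41 (adjusted p = 1.14e-08) while the abundant arm miR-7b-5p did not pass, at -0.66 ± 0.15 (adjusted p = 1). miR-130a-5p changed by -3.69 ± 0.32 (adjusted p = 8.07e-11), as its main arm had. None of these overlapped between the ages, apart from miR-7b-5p.

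Arms, clusters and seeds were then compared. Both arms were tested for 323 hairpins, and in 85 of these 1 or both arms were called. Both arms changed in the same direction in 34 (14 rises and 20 falls) and in opposite directions in 0. In the other 51 only 1 arm passed, and in 42 of those the other arm had the same sign. A difference between clusters of 1 family was seen for miR-181, a regulator of lymphocyte signalling. From the cluster of miR-181a-2 and miR-181b-2 on chromosome 2 the 3′ arms rose, miR-181a-2-3p by 1.44 ± 0.15 (adjusted p = 0.019) and miR-181b-2-3p by 1.79 ± 0.24 (adjusted p = 0.00606). The call of miR-181a-2-3p was lost with DESeq2 (adjusted p = 0.0952) and with thinning to equal depth (adjusted p = 0.104), and neither rise passed with library size alone. From the cluster of miR-181c and miR-181d on chromosome 8, miR-181d-5p changed by -1.88 ± 0.13 (adjusted p = 7.31e-08) and miR-181c-3p by -1.75 ± 0.17 (adjusted p = 0.000275). The dominant mature form, miR-181a-5p, did not pass, at 1.16 ± 0.10 (adjusted p = 0.256), although its ages did not overlap. Of the 83 seeds shared by 2 or more tested miRNAs, 30 had a call, and in 19 of these only 1 member was called. The other 11 had 2 or more calls, and in 10 of these all calls had 1 direction. The 10 include the pairs miR-199a-3p with miR-199b-3p and miR-3473b with miR-3473e, whose members may be the same reads. The exception was the seed of miR-148 and miR-152. miR-152-3p (intron of Copz2) ranged from 136 to 214 normalised CPM at P6 (median 185) and from 379 to 492 at 8 weeks (median 446) and rose by 1.29 ± 0.09 (adjusted p = 0.0124), whereas miR-148a-3p ranged from 67.9 to 93.3 normalised CPM at P6 (median 82.1) and from 14.7 to 27.4 at 8 weeks (median 21.3) and changed by -1.92 ± 0.12 (adjusted p = 3.45e-09). The call of miR-152-3p was lost with entries of one name summed (adjusted p = 0.0816). miR-148b-3p did not pass, at 0.45. This summary covers the 830 tested features with a RefSeq sequence.

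The P15 microglia, which entered the fit but not the contrast between P6 and 8 weeks, lay between the ages for 170 of the 178 changed features. These features were chosen for a difference between P6 and 8 weeks, which favours a P15 value in between. The number over all features was not computed. At P15 the median share of the total log2 change already present was 46.8% for the rises and 44.7% for the falls. This share was 61.2% for miR-146a-5p and 55.1% for miR-455-3p. It was only 8.36% for miR-130b-3p and 20.3% for miR-139-5p, which was chosen after its values were seen. miR-21a-3p had completed 96% of its fall of -2.10 ± 0.19 (adjusted p = 1.25e-06) by P15. These shares carry no test.

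Whether the age difference itself differed from that in bulk cells was tested as an interaction, which 156 of 1072 features (14.6%) passed, 71 (6.62%) more positive and 85 (7.93%) more negative in microglia. Of the 178 features changed in microglia 40 passed it. Among the rises, 13 were more positive in microglia and 7 less, and among the falls 19 were more negative in microglia and 1 less. miR-455-3p had a log2 fold change of only 0.02 in bulk cells, a difference of 3.26 ± 0.15 (adjusted p = 3.44e-21). miR-203-3p likewise differed by 2.83 ± 0.15 (adjusted p = 3.01e-17), miR-204-5p by 2.22 ± 0.32 (adjusted p = 0.00178) and miR-10a-5p by 2.56 ± 0.49 (adjusted p = 0.00978). For miR-2137 the bulk log2 fold change was 0.74 and the difference -5.61 ± 0.34 (adjusted p = 1.88e-18). Of the miR-29 family, miR-29a-3p and miR-29b-3p rose more in bulk cells past the interaction test, whereas miR-29c-3p did not pass it. The bulk rise of miR-29b-3p was 5.34, which gave a difference of -2.82 ± 0.17 (adjusted p = 7.13e-15). The 1 fall that was smaller in microglia was that of miR-18a-5p, at -3.61 in bulk cells and a difference of 2.13 ± 0.16 (adjusted p = 1.13e-08). Its partner miR-17-5p, which had not passed in microglia, stood at -2.86 in bulk cells, a difference of 2.31 ± 0.17 (adjusted p = 3.65e-09). miR-5121, which overlaps a coding exon of Rpl13a, and miR-1199-5p fell in microglia and rose in bulk cells. Their differences were -5.01 ± 0.26 (adjusted p = 3.44e-21) and -7.52 ± 0.58 (adjusted p = 3.31e-15), and miR-1199-5p had a microglial P6 median of only 3.32 normalised CPM. The microglial fall of miR-1199-5p was lost in 14 of the 22 repeats that left out 1 mouse and in 5 other alternatives. Its adjusted p ran from 1.91e-05 to 0.687 over all alternatives, which include a test without a fold change threshold. miR-181a-2-3p did the reverse, with a difference of 4.02 ± 0.29 (adjusted p = 5.52e-14).

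**Figure D4:**
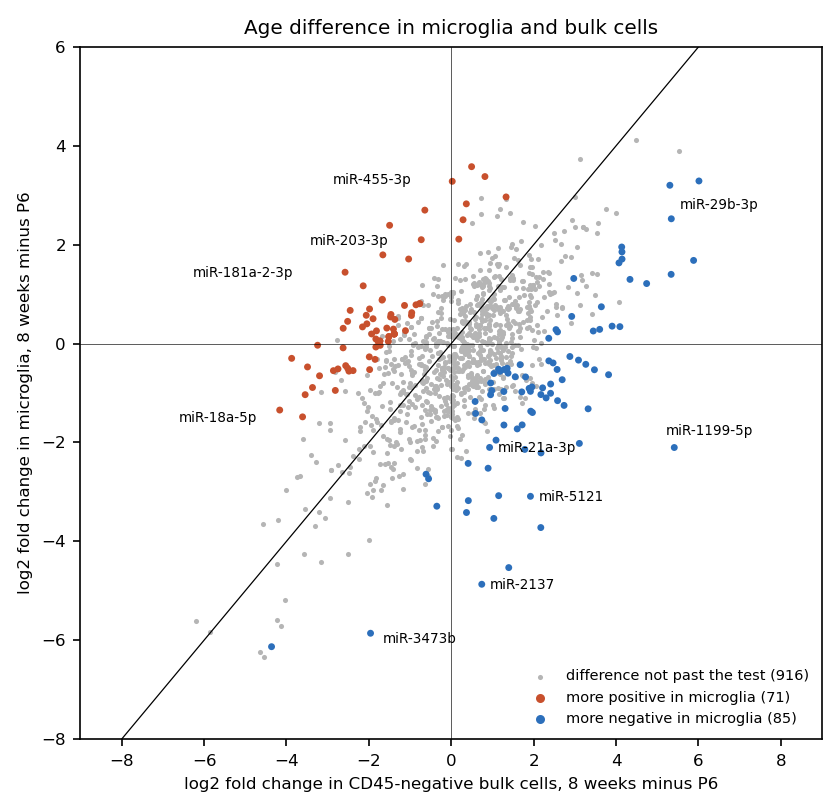
Each point is 1 of 1072 features, with its log2 fold change from P6 to 8 weeks in bulk cells on the horizontal and in microglia on the vertical axis, and the line marks equal change. The 71 orange points were more positive and the 85 blue points more negative in microglia by the interaction test, with miR-455-3p and miR-2137 far from the line near a bulk change of 0.

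The age difference was also compared between the sexes. The number of features whose age difference in microglia differed between females and males past the threshold was 0 with limma, 0 with edgeR and 0 with DESeq2. At an unadjusted TREAT p under 0.05 there were 8 of 1072 with limma.

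The counts of the other lists stand beside 7.18% of all features that rose and 9.42% that fell. Of 11 tested arms of miR-30 2 rose, of 6 muscle miRNAs 2 rose, of 6 HoxB and related miR-10 and miR-196 arms 2 rose, and none of these fell. The miR-30 count was 1 in 3 of the 22 repeats, which left out 8-week female 2, female 3 or male 6, and the muscle count was 1 without 8-week female 1. Of 12 tested inflammation miRNAs 2 rose and 1, miR-21a-3p, fell. Of 15 tested arms of miR-15 and miR-16 1, miR-15b-3p, fell, and of 11 arms of miR-99, miR-100 and miR-125 1, miR-125b-1-3p, fell. These calls were lost in 14 and 3 of the 22 repeats that left out 1 mouse. No arm passed among 5 erythroid, 2 endothelial, 8 miR-200 and miR-141, 4 miR-183 cluster and 4 miR-221 and miR-222 arms with limma's TREAT. For miR-221 and miR-222 the number of rises was 2 with edgeR and 1 or 2 in 6 of the 22 repeats, which left out P6 female 1, female 2, female 5, male 1, male 4 or male 5. A last list held some of the miRNAs assayed by qPCR as well, chosen with these samples in hand and so no independent evidence. Of its 9 members 5 rose and 2 fell. The counts of several lists depended on the scaling. With library size alone 1 oligodendrocyte and 1 lymphoid or monocyte marker rose, 2 neuronal markers rose and 3 fell, 1 let-7 arm rose and 1 fell, no miR-181 or miR-30 arm rose, and 20 arms of the Dlk1-Dio3 domain fell. Under that scaling 1 muscle miRNA and 1 arm of the miR-10 and miR-196 list rose, and 1 inflammation miRNA rose and 2 fell. The falls were 2 for miR-15 and miR-16 and 3 for miR-99, miR-100 and miR-125, and the qPCR list had 5 rises and 3 falls.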

How the data were processed

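Small RNA libraries of CD45+ microglia and CD45- bulk cells were analysed from the read counts per miRNA that the authors deposited. As their methods state, the authors trimmed reads with fastp 0.20.0, matched them to miRBase with miRDeep2 and mapped the rest to GRCm38 (mm10), and the counts were not normalised. Of 2029 entries under 1885 names, the entry with the largest total was kept for each of 79 repeated names and 3 duplicate candidates were dropped, which left 1882 features and 48.9% to 66.4% of all counts. A read can count for several related miRNAs. Totals over the 22 microglial libraries ran from 1678034 to 5982922, where a floor of 3 counts is 1.79 to 0.501 CPM. It covers counting error only. Columns of the table without a sample numbered 0.

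The analysis used 68 libraries of 34 mice, with P6 female 6 left out. Features with at least 1 CPM in 5 libraries (1072, of them 53 unannotated candidates) were fitted with voom from limma 3.58.1 under R 4.3.3, after TMM scaling by edgeR 4.0.16, as 12 group means with mouse as random effect. TREAT against a log2 fold change of 1 was used at an FDR of 0.05. Microglial and bulk libraries of 1 mouse were paired in this way by the mouse number in the titles. Coordinates and sequences are from RefSeq and GENCODE on GRCm38, with a sequence for 830 of the features tested. The script was tested on simulated data. No 2 libraries held identical counts.

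Members, lists and tests were chosen with earlier results of these data known. Named were the 10 largest rises and falls without overlap and with at least 10 counts in every library of the higher age, the 10 called miRNAs with the largest difference in CPM, members of 28 lists, both arms of named precursors, seed families with at least 3 calls, and miRNAs called in opposite directions in the fractions. Chosen after their values were seen were miR-34a-5p, miR-134-5p, miR-139-5p, miR-148, miR-152-3p, miR-199b-3p, miR-203-3p, miR-216, miR-217, miR-298, miR-335-5p, miR-425-3p, miR-483 and, for the interaction, miR-17-5p, miR-18a-5p, miR-203-3p and miR-204-5p. Alternatives were another test (edgeR, DESeq2 1.42.0, no fold threshold), scaling, filter, block, sample set, summed entries and quality weights, leaving out each of 22 mice, and, added after the data were seen, thinning to equal depth. List shares carry no p-value.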

Additional observations from a re-analysis of the deposited data

Results flagged for a closer look

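The age difference of 16 miRNAs, those chosen by the naming rule or given with such a difference in the text, differed between microglia and bulk cells by a test of the interaction (limma with TREAT). On the log2 scale, microglia minus bulk, it was more positive for 9, namely miR-181a-2-3p (4.02), miR-455-3p (3.26), miR-203-3p (2.83), miR-10a-5p (2.56), miR-7213-5p (2.46), miR-17-5p (2.31), miR-204-5p (2.22), miR-18a-5p (2.13) and miR-146a-5p (1.64). It was more negative for 7, namely miR-3473e (-1.77), miR-29a-3p (-2.10), miR-29b-3p (-2.82), miR-3473b (-3.90), miR-5121 (-5.01), miR-2137 (-5.61) and miR-1199-5p (-7.52). For miR-3473e the adjusted p ran from 2.45e-07 to 0.432 over all alternatives, which include a test without a fold change threshold. The difference of miR-3473e was lost in 11 of the 22 repeats that left out 1 mouse and in 5 other alternatives. That of miR-146a-5p was lost with library size alone and with every library thinned to 1678034 counts, that of miR-10a-5p with thinning and without P6 female 2, and that of miR-7213-5p with library size alone and without P6 female 5. The other 12 passed in every alternative that gave a value.

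Within P6 microglia, 1 of 28 named miRNAs had a library apart from the other 9 by Dixon's ratio, the gap to the nearest library over the range. miR-132-5p had 0 counts in P6 male 4 (ratio 0.477, above the critical value for 10 samples), and the next library stood at 0.595 normalised CPM. Chance flags about 1 in 20 such groups.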

How the results depend on the processing

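Of 95 called miRNAs (named, or members of the lists) followed through 3513 values, 0 changed direction and 62 kept their call in every alternative, and the call was lost in 169 values. The 3513 include the main fit itself, which could lose no call. They also include the test without a fold change threshold, in which all 178 calls were kept. The share of calls lost is therefore understated by these numbers. Without a fold change threshold 253 features rose and 325 fell, and with library size alone 39 rose and 175 fell. For the interaction with bulk cells, dropping the fold change threshold gave 192 more positive and 383 more negative, and DESeq2 gave 52 more negative. The cause was not tested. Leaving out 1 mouse at a time gave 70 to 88 rises and 85 to 101 falls, and 68 to 73 and 73 to 89 for the interaction. For the sex comparison the count stayed at 0 in both directions. The share of counts of the 10 most abundant miRNAs was lower at 8 weeks by 5.09 percentage points (permutation test, two-sided, p = 0.0041), and -6.20 to -4.56 without 1 library, but 0.0611 higher (p = 0.92) with all entries in the denominator.

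With no replicate block 78 features rose and 101 fell, and with sex and number as replicate block in the microglial libraries alone 84 rose and 90 fell. Mice of the same number at the 2 ages are different animals, and their deviations correlated by -0.0769 to 0.127 over 10 pairs, so the number paired nothing across ages. In P6 microglia, the shallowest libraries, 33 of the 101 falls had a P6 library with fewer than 10 counts, and differences of such miRNAs are imprecise.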
